A study of Rattus norvegicus with 8 samples.

Results

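The 10 genes described here act in cell division. They are *Ccnb1* (NM_171991), *Cdk1* (NM_019296), *Plk1* (NM_017100), *Ube2c* (ENSRNOT00000020323), *Cdc20* (NM_171993), *Top2a* (NM_022183), *Aurkb* (NM_053749), *Birc5* (NM_022274), *Pcna* (NM_022381) and *Ccnd1* (NM_171992), found on a whole-genome rat microarray by these transcript identifiers. All 10 were present, with 15 probes among the 41012 on the array. *Ccnb1*, *Plk1*, *Top2a*, *Pcna* and *Ccnd1* had 2 probes each and the other 5 genes had 1. The genes were chosen on a reading of these same arrays, taken here to be their LO over control ratios in liver, so those ratios are given as a description with no test.

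The study compared male rats given lavender oil (LO) with sham controls. There were 12 rats, 7 weeks old, 6 in each group. LO rats received 5 mg/kg of the oil in 10% ethanol into the stomach once a day for 13 days. Controls received 10% ethanol without the oil in the same way, and tissues were taken on day 14. The sample labels name the strain as Wistar, whereas the rearing protocol names F334 (Fischer). RNA of the 6 rats of a group was pooled, and the small intestine, spleen, liver pool 1 and liver pool 2 each gave 1 control and 1 LO pool, so that 8 RNA pools were hybridised on 8 arrays. Neither the labels nor the methods say how the liver pools differ. On the first array of each pair LO RNA carried the Cy5 dye and control RNA the Cy3 dye, and on the second array the dyes were exchanged. No group holds separate animals, so all errors and p-values reflect the spread between arrays and pools and not between rats.

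The share of features per array with both channels well above background ran from 44.3% to 64.7%, the liver arrays being the lowest, and no feature was saturated. The tissues carried their own markers. All 8 probes of hepatocyte genes were above background in every liver channel, the 3 enterocyte probes in every intestinal channel, and the B cell gene *Cd79b* reached a mean log2 level of 14.28 in spleen against 5.12 in liver. The 6 probes of pancreatic acinar genes were also high in the small intestine, where their summed signal was 532000 in the control and 462000 in the LO pool, against 3310 to 4520 in the 4 liver pools. Each tissue was hybridised on a slide of its own, so slide and tissue cannot be told apart in the comparisons between tissues.

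A dividing cell enters mitosis when cyclin B1, the product of *Ccnb1*, activates the kinase encoded by *Cdk1*. *Plk1* and *Aurkb* encode further mitotic kinases, and *Birc5* encodes survivin, which works with Aurora B in the chromosomal passenger complex. *Cdc20* activates the anaphase-promoting complex and *Ube2c* encodes the ubiquitin-conjugating enzyme that serves it, so both act in the exit from mitosis. *Top2a* encodes the topoisomerase that untangles sister chromatids, *Pcna* the sliding clamp of DNA replication and *Ccnd1* the D-type cyclin of G1. Hepatocytes of an adult liver rarely divide, whereas intestinal crypts renew continuously and the rodent spleen holds dividing lymphoid and erythroid cells.

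Many genes of G2 and mitosis share 2 short promoter sequences, the cell cycle genes homology region (CHR) and the CCAAT box. The stretches before the transcription start are printed here because the 7 genes differ in which of these letters they hold. Whether these letters bear on the levels in the RNA pools was not tested. RefSeq promoters of build GRCr8 were on hand for 7 of the 10 genes, and *Ube2c*, *Aurkb* and *Ccnd1* had no entry. Each line gives the last 150 bases before the annotated start, 5′ to 3′ on the gene's strand, and capitals mark the motif matches on either strand. The CHR was searched as TTTGAA and in the variant spelling TTTAAA, and the CCAAT box as its 5 letters. In the opposite orientation the CCAAT box reads ATTGG, and the first CHR spelling then reads TTCAAA.
Ccnb1, chr2:33655226-33655375, minus strand: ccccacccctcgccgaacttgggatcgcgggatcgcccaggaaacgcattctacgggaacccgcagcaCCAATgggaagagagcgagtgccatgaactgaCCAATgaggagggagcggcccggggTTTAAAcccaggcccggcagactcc
Cdk1, chr20:19265143-19265292, plus strand: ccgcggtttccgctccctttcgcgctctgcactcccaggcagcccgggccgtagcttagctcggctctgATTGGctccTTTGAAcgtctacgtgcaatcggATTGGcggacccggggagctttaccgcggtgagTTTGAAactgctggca
Plk1, chr1:186147508-186147657, plus strand: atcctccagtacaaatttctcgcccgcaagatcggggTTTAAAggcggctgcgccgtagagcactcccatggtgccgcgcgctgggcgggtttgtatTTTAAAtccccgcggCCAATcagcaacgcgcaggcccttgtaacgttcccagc
Cdc20, chr5:137255800-137255949, minus strand: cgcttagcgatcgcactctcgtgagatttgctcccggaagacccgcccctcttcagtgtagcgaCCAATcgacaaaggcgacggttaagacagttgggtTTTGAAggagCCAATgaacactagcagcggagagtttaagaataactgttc
Top2a, chr10:84473094-84473243, minus strand: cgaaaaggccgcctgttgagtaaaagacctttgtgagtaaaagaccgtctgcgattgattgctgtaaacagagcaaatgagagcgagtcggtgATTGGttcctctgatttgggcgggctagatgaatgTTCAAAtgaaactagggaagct
Birc5, chr10:103571996-103572145, plus strand: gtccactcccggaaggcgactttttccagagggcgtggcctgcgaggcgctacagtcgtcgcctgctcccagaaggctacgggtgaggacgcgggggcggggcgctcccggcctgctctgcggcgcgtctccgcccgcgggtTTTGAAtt
Pcna, chr3:139955821-139955970, minus strand: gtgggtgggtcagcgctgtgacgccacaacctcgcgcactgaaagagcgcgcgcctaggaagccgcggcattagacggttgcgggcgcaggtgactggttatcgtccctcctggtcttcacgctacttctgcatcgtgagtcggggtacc

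The 6 mitotic genes among these, *Ccnb1*, *Cdk1*, *Plk1*, *Cdc20*, *Top2a* and *Birc5*, held a CHR spelling in the 250 bases before the start, and *Pcna* held none. Of all promoters, 25.4% held a CHR of either spelling. TTTGAA occurred in *Cdk1*, *Cdc20*, *Top2a* and *Birc5*, and in 16.2% of all 33469 promoters of the table. TTTAAA, which reads the same on both strands, occurred in *Ccnb1* and *Plk1* and in 12.3% of all promoters. CCAAT occurred in all 7 genes and in 34.0% of all promoters. *Ccnb1*, *Cdk1*, *Cdc20* and *Top2a* held it at least 2 times, against 9.42% of all. Some of these matches lie before the 150 bases shown. They are the only match of *Birc5* and of *Pcna*, starting 213 and 168 bases before the start, that of *Cdk1* at 210 and those of *Top2a* at 239, 201 and 161. A CHR spelling together with CCAAT was found in 6 of the 7 genes and in 9.04% of promoters. Neither of the E2F spellings TTTGGCGC and TTTCCCGC was found in the 7 stretches, and they occurred in 0.412% and 0.813% of promoters. The motifs searched did not overlap one another in the stretches shown. Such matches describe letters in a window, and binding was not measured.

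In liver, *Ccnb1* had the highest LO over control ratio of the group. Its brighter probe (A_44_P534089) gave LO over control ratios of 1.65 and 1.51 on the arrays of pool 1 and 1.60 and 1.62 on those of pool 2. Control signals were 202, 233, 229 and 211 and the LO signals on the same arrays were 332, 352, 366 and 341, so that every LO channel lay above every control channel. The mean log2 ratio was 0.67 ± 0.05 (SD over 4 arrays), a fold of 1.59. The second probe (A_44_P325479) gave ratios of 1.97, 1.4, 5.70 and 1.12, and this wide spread came with low signal. It was well above background in 5 of 8 liver channels, and the ratio of 5.70 was taken on an array where the control channel, with a signal of 8.74, was not.

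*Cdk1*, which encodes the partner kinase of cyclin B1, had liver ratios of 1.25 and 1.54 in pool 1 and 1.21 and 1.48 in pool 2. The higher value of each pool came from the array with LO in Cy3, and all 4 were above 1. The first *Plk1* probe (A_44_P463309) had ratios of 1.28, 1.5, 1.28 and 1.51, and the second (A_44_P463313) 1.39, 1.26, 1.28 and 1.21. Both probes of this kinase gene were thus on the LO side on every liver array, with mean log2 ratios of 0.47 and 0.36.

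*Ube2c* had ratios of 1.54 and 1.32 in pool 1 and 1.54 and 1.34 in pool 2, a mean log2 ratio of 0.52 ± 0.12 (SD over 4 arrays). *Cdc20* had ratios of 1.53, 1.08, 1.56 and 1.15. The genes of mitotic exit were both above 1 on 4 of 4 arrays, and *Cdc20* stood near 1.5 only where LO was in Cy5.

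*Top2a*, *Birc5* and *Aurkb* changed sides with the dye or the pool. The first *Top2a* probe (A_43_P12148) read 0.5 and 0.776 with LO in Cy5 and 1.63 and 2.03 with LO in Cy3. Its other probe (A_44_P531770) read 1.02 and 0.937 with LO in Cy5 and 1.64 and 1.52 with LO in Cy3. *Birc5* went the other way, with 1.70 and 2.07 where LO was in Cy5 against 1.0 and 0.924 where LO was in Cy3. *Aurkb* had ratios of 1.29 and 1.54 in pool 1 and 1.08 and 0.869 in pool 2, and 6 of its 8 liver channels were well above background. For these 3 genes the gap between the dye orientations or between the pools exceeded the mean log2 ratio, as it also did for *Cdc20*, *Ccnb1* A_44_P325479 and both *Pcna* probes.

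**Figure D1:**
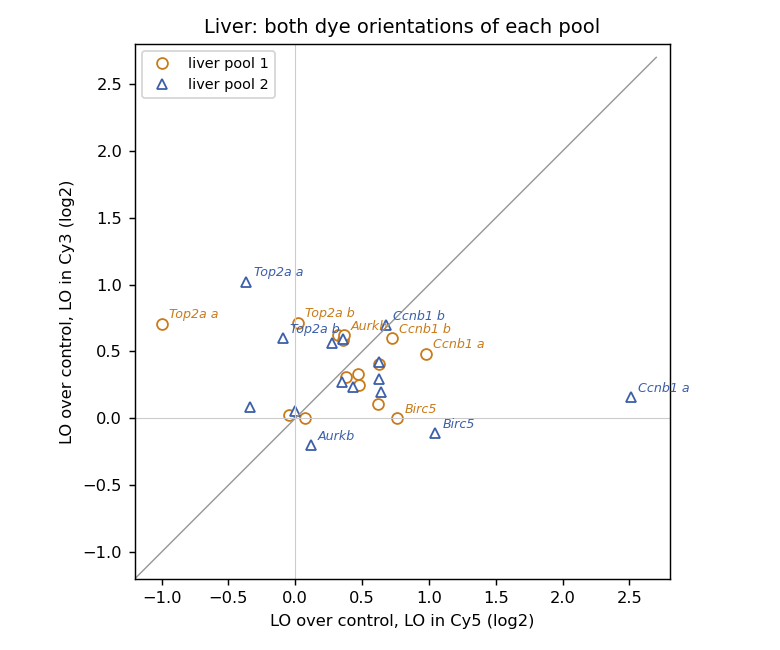
LO over control of the 15 probes in liver as log2 ratios, with the array that had LO in Cy5 on the x axis and the array with LO in Cy3 on the y axis; circles are liver pool 1, triangles are liver pool 2, a and b are the probes of a gene in the order given in the text for *Top2a*, and for *Ccnb1* a is A_44_P325479. Points on the diagonal read the same in both dye orientations: *Ccnb1* b lies there at 0.60 to 0.72, while *Top2a* lies far above it and *Birc5* below it.

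*Pcna*, the replication clamp gene, lay near equality in liver except on 1 array. Its brighter probe (A_44_P995132) had ratios of 0.967, 1.02, 1.0 and 1.04, and the other (A_44_P242756) 1.05, 0.999, 0.793 and 1.06. *Ccnd1*, the G1 cyclin gene, was above 1 on every liver array with either probe. A_44_P189299 gave 1.39, 1.19, 1.35 and 1.18 and A_44_P411505 gave 1.30, 1.24, 1.54 and 1.23.

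Taking the 15 probes together, 9 probes of 6 genes (*Ccnb1*, *Cdk1*, *Plk1*, *Ube2c*, *Cdc20* and *Ccnd1*) lay above 0 in log2 ratio on all 4 liver arrays, and none lay below 0 on all. Of all probes tested, 3.19% lay above 0 on all 4 and 2.95% below. No probe on the array passed the adjusted threshold of 0.05 in liver (0.0% higher, 0.0% lower; limma with Benjamini-Hochberg adjustment), and 5.82% had an unadjusted p under 0.05. The median of the 15 mean log2 ratios was 0.39, against −0.0005 for all 30619 probes. With normexp background correction and loess in place of the deposited ratios, the log2 ratios of *Ccnb1* A_44_P534089, *Plk1* A_44_P463309 and *Ube2c* were 0.44, 0.30 and 0.31, and that of *Ccnb1* A_44_P325479 was 0.22 instead of 1.03. Since the genes were chosen with liver results known, nothing is read from the difference. By the cut-offs of the study's methods, which take a Cy5 over Cy3 ratio of at least 1.5 in one dye orientation and at most 0.75 in the other, the brighter *Ccnb1* probe was the only one of the 15 that was up in pool 1 and again in pool 2 with the scanner software's P below 0.01 on both arrays. These cut-offs took 0.0138% of features as up in pool 1 and 0.0161% in pool 2. Without the P threshold, the other *Ccnb1* probe was also up in pool 1 and *Ube2c* in pool 2, where 0.408% and 0.51% of features were up. None of the 15 was up in spleen or small intestine by these cut-offs without the P threshold, which took 0.399% and 0.36% of features there.

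**Figure D2:**
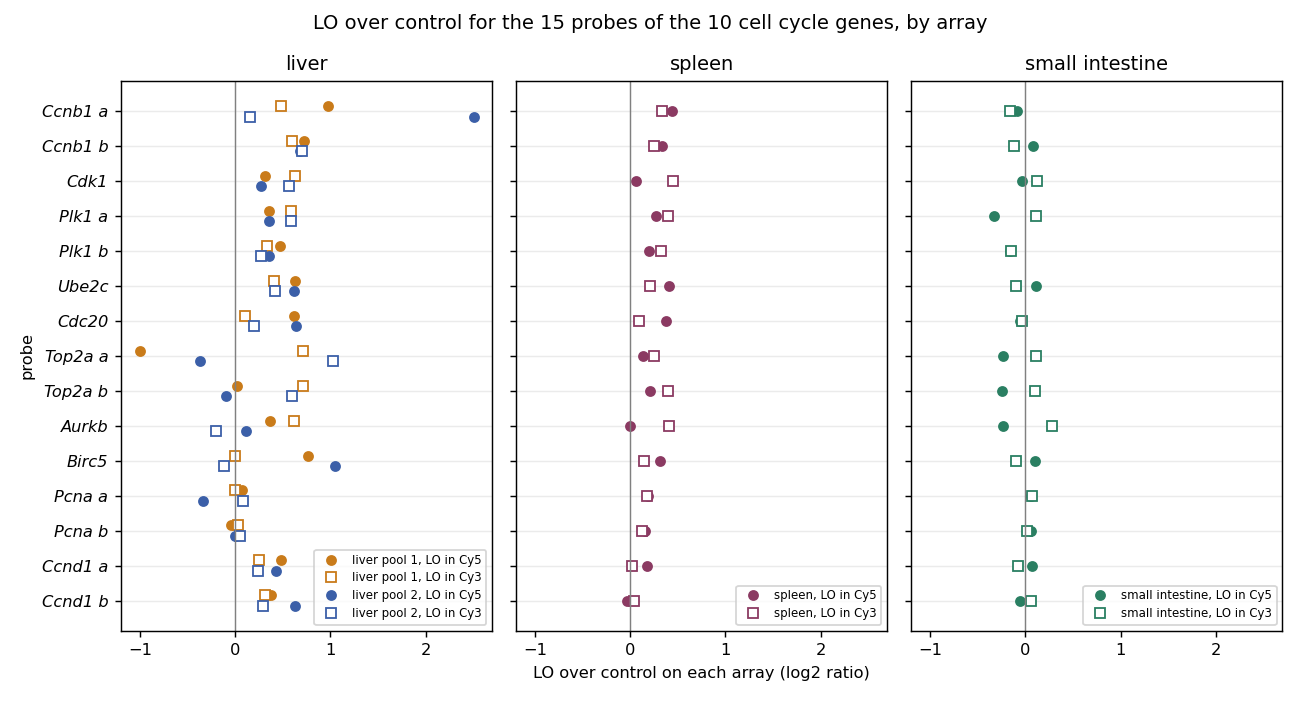
LO over control for each of the 15 probes (rows) on every array as log2 ratios, in liver, spleen and small intestine; filled circles are arrays with LO in Cy5 and open squares arrays with LO in Cy3, and colours tell the pools apart. In liver 9 probes lie right of 0 on all 4 arrays, in spleen 13 lie right of 0 on both arrays, and in the small intestine the points scatter about 0.

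The summed levels of hepatocyte, leukocyte and erythroid markers overlapped between control and LO liver pools. The summed signal of the 8 hepatocyte probes was 794000 to 839000 in the control and 791000 to 810000 in the LO pools. The 2 pan-leukocyte probes, *Coro1a* and *Laptm5*, summed to 6310 to 6580 in control and 5940 to 6490 in LO pools, and the median log2 ratio of the 5 erythroid precursor probes was −0.05. Of these erythroid genes, *Rhag* and *Hemgn* were not well above background in any liver channel. The 3 T lymphocyte probes summed to 1140 to 1580 in control and 1130 to 1600 in LO pools, *Cd79b* lay at 30.6 to 42.5 and 32.7 to 34.4, and the crypt gene *Ascl2* at 212 to 250 and 185 to 211, while the enterocyte sum was 467 to 469 and 475 to 527. The part of these cells in the liver ratios was not tested. In pooled tissue RNA, more cells expressing a gene and more RNA per cell cannot be told apart.

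In spleen, no probe on the array passed the adjusted threshold of 0.05 for LO over control (0.0% higher and 0.0% lower; limma with Benjamini-Hochberg adjustment), whereas 4.26% did at an unadjusted p under 0.05. All 15 probes had a mean ratio above 0, by small amounts. Of them 13 were above 0 on both spleen arrays, compared with 15% of all probes (15.8% were below 0 on both), and the exceptions were *Aurkb* and *Ccnd1* A_44_P411505. Their median log2 ratio was 0.23 and the range 0.01 to 0.39. The median of all probes was −0.0049. Both spleen arrays hold the same control and LO pool, several probes belong to the same gene, and the genes were chosen on these data. Nothing is therefore read from the count of 13.

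The brighter *Ccnb1* probe read 1.26 and 1.19 in spleen, a log2 ratio of 0.29 ± 0.07 (SE; limma unadjusted p = 0.0461, adjusted p = 1.0). *Plk1* A_44_P463309 read 1.21 and 1.32 (0.33 ± 0.07, SE; limma unadjusted p = 0.0335, adjusted p = 1.0). *Ube2c* read 1.32 and 1.16 (0.31 ± 0.07, SE; limma unadjusted p = 0.0397, adjusted p = 1.0). These 3 were the only probes of the 15 with an unadjusted p under 0.05. In this tissue 2.6% of all probes were higher at that level. The error behind these p-values comes from the spread between the 2 liver pools, whose ratios were taken to have chosen the genes. For these 3 probes the SD between the liver pools was 0.019, 0.001 and 0.003. Nothing is therefore read from their number.

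The dimmer *Ccnb1* probe read 1.36 and 1.26, the highest mean log2 ratio of the 15 in spleen at 0.39. Its error was larger (SE 0.30, limma unadjusted p = 0.311, adjusted p = 1.0). That error comes from the liver pools, where this probe was dim and had folds of 1.66 and 2.52, and not from the spleen arrays. *Cdk1* read 1.04 with LO in Cy5 and 1.37 with LO in Cy3, and *Cdc20* 1.30 and 1.07. *Birc5* read 1.24 and 1.11, and *Top2a* A_44_P531770 read 1.16 and 1.31. *Pcna* A_44_P242756 read 1.14 and 1.13, the closest agreement between dyes among the 15 in this tissue, and A_44_P995132 read 1.11 and 1.09. *Ccnd1* read 1.13 and 1.01 with one probe and 0.980 and 1.03 with the other, so the G1 cyclin gene was near equality here. With background corrected by normexp and loess in place of the deposited ratios, 2 of the 15 spleen probes passed the adjusted threshold, *Ccnb1* A_44_P325479 and *Plk1* A_44_P463309, and 95 probes in all were called higher.

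Erythroid precursor genes also lay on the LO side in the spleen. All 5 of their probes were above 0 on both spleen arrays, with a median log2 ratio of 0.51 and a range of 0.15 to 0.62, and their summed signal was 43400 in the control and 52400 in the LO pool. *Rhag*, the Rh-associated glycoprotein gene, had log2 ratios of 0.86 and 0.39 with one probe and 0.63 and 0.56 with the other. Hepatocyte genes, at very low level, had 5 of 8 probes above 0 on both spleen arrays, a median log2 ratio of 0.52 and a summed signal of 545 in the control and 784 in the LO pool. The pan-leukocyte sum was 117000 in both pools and *Cd79b* had a log2 ratio of −0.01. The part of any of these cells in the spleen ratios of the division genes was not tested.

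In the small intestine the 15 probes scattered around 0, from −0.15 to 0.07 in mean log2 ratio with a median of −0.003. None was called and none had an unadjusted p under 0.05, where 3.94% of all probes did (0.0% called higher and 0.0% lower by limma with Benjamini-Hochberg adjustment). Both *Pcna* probes were above 0 on both arrays, at 1.04 and 1.05 for A_44_P242756 and 1.04 and 1.01 for A_44_P995132. *Ccnb1* A_44_P325479, *Plk1* A_44_P463313 and *Cdc20* were below 0 on both. The brighter *Ccnb1* probe read 1.06 and 0.917, *Cdk1* 0.975 and 1.09, and *Ube2c* 1.08 and 0.936, so that each lay on different sides of 1 in the 2 dye orientations. Of all probes, 14.1% were above 0 on both arrays and 12.5% below.

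Whether LO ratios differed between spleen and small intestine was tested directly, with the error again taken from the spread between the liver pools. No probe on the array passed the adjusted threshold in that test (limma), and 1111 had an unadjusted p under 0.05. Among the 15, *Plk1* A_44_P463309 was the only probe at that level, at 0.33 in spleen against −0.11 in small intestine (difference 0.44 ± 0.10 SE, limma unadjusted p = 0.0384, adjusted p = 1.0). The liver pools behind its error had an SD of 0.001, while its intestinal arrays read −0.331 and 0.116 in log2 ratio. Nothing is therefore read from this p-value.

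Other genes of the cell cycle were read from lists of mitosis and cytokinesis (17 genes, 22 probes), DNA replication and S phase (25 genes, 36 probes) and G1 regulators and inhibitors (21 genes, 30 probes). None of these probes was called for LO over control in any tissue by limma. The mitosis list had a median log2 ratio of 0.19 in liver, 0.20 in spleen and 0.01 in small intestine, with 10 of its probes above 0 on all 4 liver arrays and 15 above 0 on both spleen arrays. The replication list had medians of 0.01, 0.12 and −0.02 in the same order, with 3 probes above 0 on all liver arrays and 21 on both spleen arrays. The G1 list had medians of 0.01, 0.003 and −0.003, and 0 of its probes were above 0 on all 4 liver arrays. These are counts with no test between lists, and they can be set beside the 3.19% of all probes above 0 on all liver arrays and the 15% above 0 on both spleen arrays.

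In spleen, *Ccnb2*, which encodes cyclin B2, had the smallest p of the mitosis list, with a log2 ratio of 0.40 ± 0.07 (SE; limma unadjusted p = 0.0258, adjusted p = 1.0). The next was *Ccna2*, which encodes cyclin A2, at 0.37 ± 0.10 (SE; limma unadjusted p = 0.0559). From the replication list the leading genes were those of thymidylate synthase, *Tyms*, at 0.28, and of the small subunit of ribonucleotide reductase, *Rrm2*, at 0.27, with limma unadjusted p = 0.0504 and 0.0536. From the G1 list they were *Ccnd3* at 0.19 and the inhibitor gene *Cdkn1c* at −0.19, each with limma unadjusted p = 0.103. In the small intestine the smallest p of the replication list belonged to *Brca2* A_42_P745147, which was well above background in 1 of 4 channels there. Its log2 ratio was 2.47 on one array and 0.0 on the other, and the second *Brca2* probe averaged 0.07, so no change is read from it. The mitosis list was led there by *Cdc27*, a subunit of the anaphase-promoting complex, at −0.11 with 3 of 4 channels well above background, and the G1 list by *Cdkn2a* at 0.24, with limma unadjusted p = 0.259 and 0.111. Next in the replication, mitosis and G1 lists were *Orc6* at 0.20, *Ccna2* A_44_P527480 at 0.083 and *Ccnh* at 0.12. Their limma unadjusted p was 0.124, 0.482 and 0.244.

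**Figure D3:**
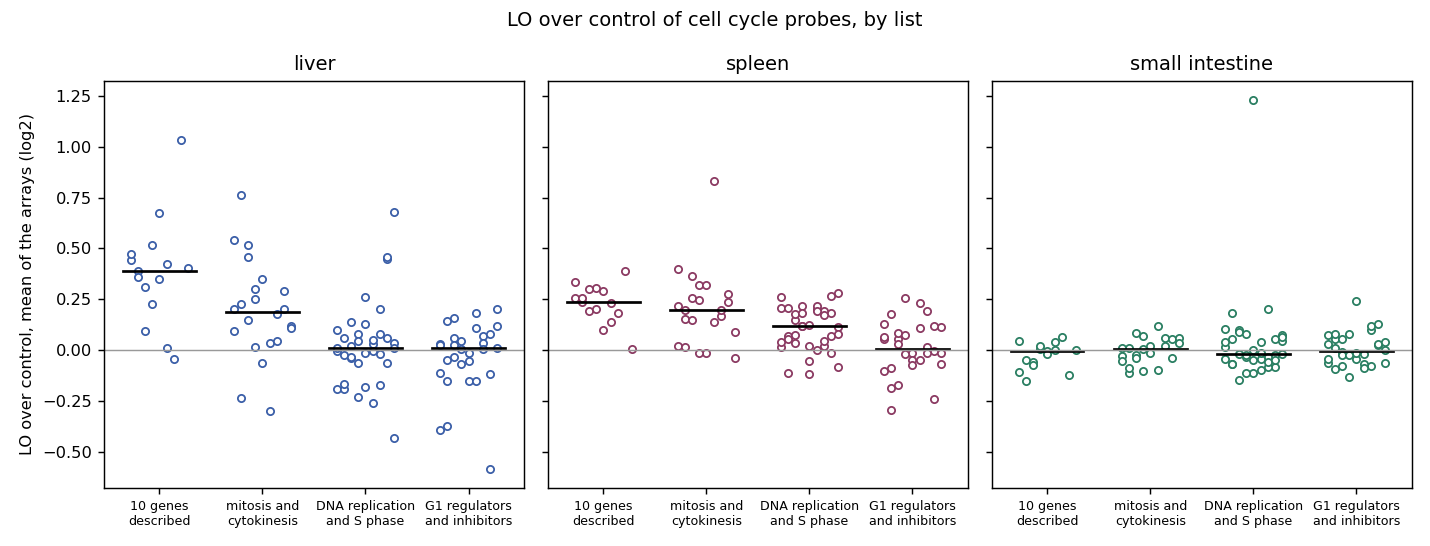
Mean log2 ratio of LO over control in liver, spleen and small intestine for the probes of the 10 genes described and of the 3 cell cycle lists; each circle is a probe and the bar is the list's median. The medians of the 10 genes are 0.39, 0.23 and −0.003, those of the mitosis list 0.19, 0.20 and 0.01, and those of the G1 list 0.01, 0.003 and −0.003, with single G1 probes down to −0.59 in liver.

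For most of these genes the tissues differed by more than LO and control did. The mean level of 14 of 15 probes was lower in liver than in spleen and than in small intestine. In spleen over liver, 10 of 15 probes, of 8 genes, were called higher and none lower, where 27.1% of all probes were called higher and 22.0% lower (limma, adjusted p under 0.05). In small intestine over liver, 9 of 15 probes, of 7 genes, were called higher and none lower, against 21.1% and 19.4% of all probes. The median differences were 1.75 and 1.5 on the log2 scale, and those of all probes 0.10 and 0.004. Every pool of spleen lay above every liver pool for 14 probes (43.6% of all probes), and the same held for small intestine over liver (39.6%), with *Cdc20* the exception in both. The limma fit over 8 pools gave unchanged probes of simulated data a small p too often. Where a call of the 15 was lost with the mean of each array pair as the unit, that adjusted p is given as well.

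*Top2a* A_44_P531770 differed most among the called probes in spleen over liver. Its log2 levels were 9.94 and 10.25 in the control and LO pools of spleen, 9.68 and 9.60 in those of small intestine, and 7.59, 7.27, 7.96 and 7.52 in control pools 1 and 2 and LO pools 1 and 2 of liver. Spleen exceeded liver 5.69-fold (2.51 ± 0.40 log2, SE; limma adjusted p = 0.00302) and small intestine exceeded liver 4.15-fold (2.05 ± 0.40 log2, SE; limma adjusted p = 0.0084). The dimmer *Top2a* probe was higher in spleen than in liver 2.52-fold (limma adjusted p = 0.0367, and 0.0618 with array pair means). In small intestine it was 2.38-fold higher than in liver with limma adjusted p = 0.0525.

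*Cdk1* had log2 levels of 12.18 and 12.43 in spleen, 12.23 and 12.28 in small intestine, and 10.15, 10.17, 10.62 and 10.58 in the same order of liver pools. Both tissues exceeded liver, by 3.80-fold (1.93 ± 0.37 log2, SE; limma adjusted p = 0.00642) and 3.67-fold (1.88 ± 0.37 log2, SE; limma adjusted p = 0.00889), while spleen and small intestine did not differ beyond their spread. *Ube2c* lay at 10.48 and 10.79 in spleen, 10.46 and 10.47 in small intestine, and 8.49, 8.26, 9.01 and 8.78 in liver. Its folds over liver were 4.00 (limma adjusted p = 0.0119) and 3.56 (limma adjusted p = 0.0202).

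*Plk1* A_44_P463313 was 3.81-fold higher in spleen and 3.52-fold higher in small intestine than in liver (limma adjusted p = 0.0143 and 0.0216), and its other probe 2.17-fold and 2.13-fold, with limma adjusted p = 0.114 and 0.135. *Birc5* was 3.77-fold and 3.30-fold higher (limma adjusted p = 0.0152 and 0.0269, but 0.0526 and 0.0809 with array pair means). *Aurkb* was 3.26-fold higher in spleen (limma adjusted p = 0.0198) and 2.48-fold in small intestine, where the limma adjusted p was 0.0561.

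*Ccnb1*, the gene with the highest LO ratio in liver, did not pass in either tissue comparison in the fit over 8 pools. The brighter probe lay at 9.22 and 9.51 in spleen, 9.79 and 9.76 in small intestine, and 8.08, 8.22, 8.74 and 8.90 in liver, where the control pools are the lower pair. It was 1.84-fold higher in spleen and 2.44-fold higher in small intestine than in liver, with limma adjusted p = 0.259 and 0.131. Its standard error was 0.59 on the log2 scale in this fit and 0.36 with array pair means. With those means its limma adjusted p was 0.139 and 0.0833. The dimmer probe was 6.32-fold and 6.41-fold higher, with limma adjusted p = 0.084 and 0.0933, and a standard error of 1.07 on the log2 scale. With array pair means its limma adjusted p was 0.0327 and 0.0421. No pool overlapped between liver and either other tissue for either probe.

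*Cdc20* did not follow the other mitotic genes between tissues. Its log2 levels were 9.70 and 9.93 in spleen, 9.98 and 9.93 in small intestine, and 9.67, 10.09, 10.03 and 10.51 in liver. The liver mean of 10.08 was the highest of the 3 tissues, although neither comparison passed (spleen over liver −0.26 ± 0.42 and small intestine over liver −0.12 ± 0.42 log2, SE; limma adjusted p = 0.635 and 0.844). Its Pearson r with the mean of the other mitotic members over the 8 RNA pools was −0.30, whereas the other 14 probes had r between 0.92 and 0.998, a description over pools that share arrays and tissues.

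*Pcna* was higher in spleen than in liver by 3.89-fold and 2.91-fold with its 2 probes (limma adjusted p = 0.0036 and 0.00232), and higher in small intestine by 2.83-fold and 2.07-fold (limma adjusted p = 0.0127 and 0.0131). With array pair means the limma adjusted p in small intestine was 0.0805 and 0.126. *Ccnd1* had its highest mean level in the small intestine. A_44_P411505 lay at 10.74 in both intestinal pools, 10.00 and 10.01 in spleen, and 8.36, 7.74, 8.71 and 8.20 in liver, and was 5.62-fold higher in small intestine than in liver (limma adjusted p = 0.00783) and 3.37-fold higher in spleen (limma adjusted p = 0.0235). A_44_P189299 was 2.19-fold higher in small intestine than in liver (limma adjusted p = 0.0453) and 1.75-fold in spleen, with limma adjusted p = 0.105. With array pair means the limma adjusted p was 0.0533 for A_44_P411505 in spleen and 0.105 for A_44_P189299 in small intestine.

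**Figure D4:**
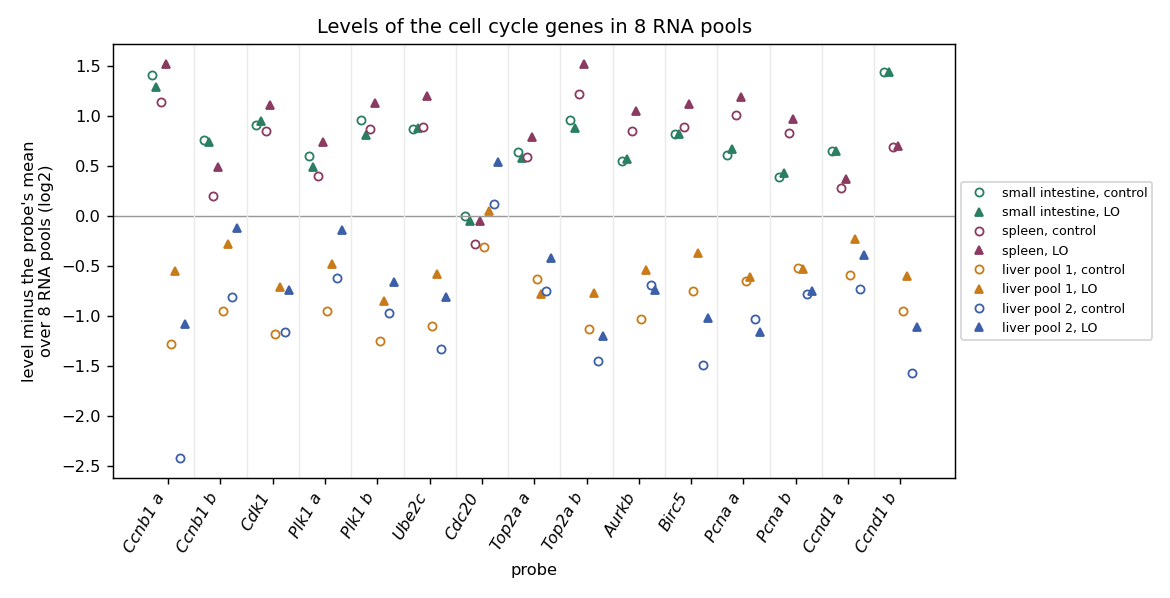
Log2 level of each of the 15 probes in the 8 RNA pools, minus the probe's mean over the pools; circles are control and triangles LO pools, and colours give the tissue and liver pool. All spleen and intestinal pools lie above all liver pools for every probe except *Cdc20*, and the LO triangles of liver lie above the control circles of their own pool for *Ccnb1*, *Cdk1*, *Plk1*, *Ube2c*, *Cdc20*, *Birc5*, *Ccnd1* and the second *Top2a* probe.

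Between small intestine and spleen none of the 15 probes was called (limma), where 13.0% of all probes were called higher in small intestine and 14.8% lower. Differences ran from −0.49 for *Pcna* A_44_P995132 (limma adjusted p = 0.235) to 0.74 for *Ccnd1* A_44_P411505 (limma adjusted p = 0.39). Small intestine and spleen had 1 pair of pools each, so the spread between pairs of a tissue comes from the 2 liver pool pairs alone. The fit has 1 LO term for all tissues, so differences in LO ratio between the pairs also enter its error. With the pair not modelled, 14 of 15 probes were called higher in spleen and 14 in small intestine than in liver, and with control pools alone 7 and 6 were. On simulated data the fit over 8 pools gave unchanged probes a small p too often, so the mean of each array pair was also used as the unit, an alternative chosen after seeing the data. It called 8 of 15 probes higher in spleen and 6 in small intestine than in liver, where 17.0% and 10.1% of all probes were higher (13.0% and 8.98% lower). The calls it lost were those of *Birc5* and *Ccnd1* in both comparisons (*Ccnd1* A_44_P411505 in spleen, A_44_P189299 in small intestine), *Top2a* A_43_P12148 in spleen and both *Pcna* probes in small intestine, with limma adjusted p from 0.0526 to 0.126. Between small intestine and spleen it called none of the 15, against 5.3% of all probes higher and 3.92% lower.

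Other cell cycle genes were for the most part higher than in liver where called, and the lists were not tested against each other. Of the 22 mitosis probes, 17 were called higher and 1 lower in spleen than in liver, and 13 and 1 in small intestine than in liver (limma). With array pair means these counts were 10 and 0, and 3 and 0. *Cdc25b*, which encodes a phosphatase that activates cyclin-dependent kinases, was 41.3-fold higher in spleen than in liver, and lower in small intestine than in spleen by 5.30 ± 0.30 log2 (SE), at 0.0254-fold. *Ccnb2* and the kinesin gene *Kif22* were 8.28-fold and 7.89-fold higher in spleen than in liver, and 7.02-fold and 6.44-fold higher in small intestine, where *Ccna2* A_43_P15962 followed at 5.53-fold. That *Ccna2* probe was well above background in 2 of 8 liver channels and *Kif22* in 6, and the brighter *Ccna2* probe (A_44_P527480, 8 of 8) differed by 2.02 log2 in small intestine over liver. *Hmmr*, which encodes a hyaluronan receptor that also binds the spindle, was the mitosis probe called lower, at 0.160-fold in spleen and 0.195-fold in small intestine with A_44_P292314. Its other probe, A_44_P351118, gave 0.26 and 1.23 log2 with limma adjusted p = 0.809 and 0.272 and was not well above background in any liver channel, so the probes of *Hmmr* disagreed.

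Of the 36 replication probes, 24 were higher and 4 lower in spleen than in liver, and 15 and 1 in small intestine than in liver. With array pair means these counts were 16 and 3, and 2 and 1. The origin recognition gene *Orc1* was not well above background in any liver channel and was at least 5.30-fold higher in spleen and at least 3.49-fold higher in small intestine. Such bounds set the brighter tissue's mean level against the lowest signal well above background on each array of the other, or the probe's own where that was higher. *Wee1*, which encodes the kinase that restrains Cdk1, was higher in spleen by 2.39 and 2.06 log2 with its brighter probes (A_44_P487112 and A_44_P409975). These were well above background in 8 and 4 of 8 liver channels. A_44_P409977 differed most (3.38 log2) but was well above background in 1 of 8 liver channels. *Pold1*, of DNA polymerase delta, was 7.66-fold higher in spleen. *Pola2*, not well above background in any liver channel, was at least 1.45-fold higher in small intestine, and *Orc6*, with 1 of 8 liver channels well above background, differed by 2.11 log2. The uracil glycosylase gene *Ung* was lower than in liver, at 0.267-fold in spleen and 0.245-fold in small intestine. Between small intestine and spleen, *Wee1* A_44_P487112, *Rpa2* and *Dut* were lower in small intestine, at 0.370-fold, 0.376-fold and 0.387-fold.

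Of the 30 G1 probes, 15 were higher and 7 lower in spleen than in liver, and 15 and 2 in small intestine than in liver. With array pair means these counts were 10 and 5, and 9 and 1. *Ccnd3*, a D-type cyclin gene, and the antiproliferative genes *Btg2* and *Btg1* were 11.3-fold, 9.37-fold and 7.39-fold higher in spleen. *Gadd45g*, a stress-inducible growth arrest gene, was at 0.0437-fold in spleen and 0.0675-fold in small intestine. The inhibitor genes *Cdkn1a* A_44_P914438 and *Cdkn1c* A_44_P374618 were at 0.188-fold and 0.198-fold in spleen, whereas in small intestine over liver *Btg2* was 11.8-fold higher and *Cdkn2b* 20.1-fold higher, with 4 of 8 liver channels of *Cdkn2b* well above background. *Cdkn1a* A_44_P515275 was there at least 3.57-fold higher, since no liver channel was well above background, and the brighter *Cdkn1a* probe differed by 1.35 log2. *Rbl2* was at 0.516-fold there. Against spleen, where *Cdkn2b* was not well above background in any channel, the small intestine had at least 41.7-fold more *Cdkn2b* and 23.0-fold and 17.8-fold more *Cdkn1c* with 2 probes, and less *Cdkn2d*, *Gadd45b* and *Rbl2*, at 0.183-fold, 0.214-fold and 0.232-fold. All of the genes named from these lists for tissue differences had a limma adjusted p under 0.05, except where another p is given. With array pair means the adjusted p of *Hmmr*, *Ccna2* A_43_P15962 and *Orc6*, of *Rbl2* in both comparisons, and of *Wee1* A_44_P487112, *Rpa2*, *Dut*, *Cdkn2d* and *Gadd45b* in small intestine over spleen was 0.0503 to 0.148.

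**Figure D5:**
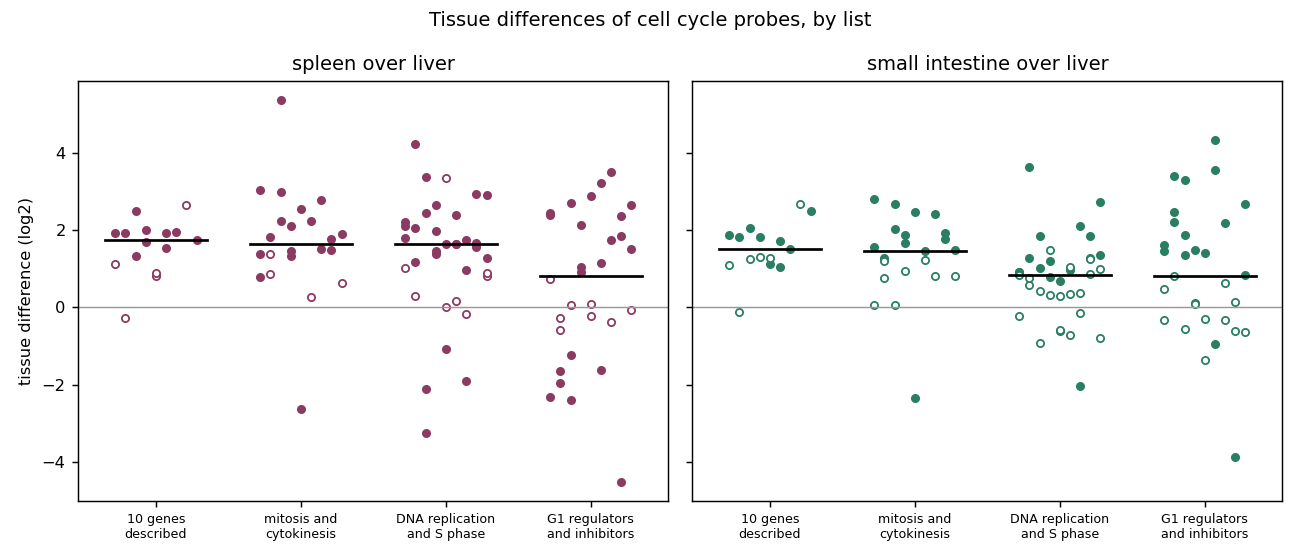
Log2 difference between spleen and liver and between small intestine and liver for the probes of the 10 genes described and of the 3 cell cycle lists; filled circles passed the adjusted threshold of 0.05 in limma, open circles did not, and the bar is the list's median. The medians of the 10 genes are 1.75 and 1.5, those of the mitosis list 1.65 and 1.47, and G1 probes spread widely on both sides of 0.

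The probe whose levels over the 8 RNA pools were most like the mean of the mitotic members had a Pearson r of 0.9992, and the 5 most similar probes outside the group had r from 0.9946 to 0.9992. The only one of these 5 that could be named was the centromere protein gene *Cenpq* (r = 0.9949). With 3 tissues behind the 8 pools, such values mostly describe a common order of tissues.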

How the data were processed

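Total RNA pools were labelled by the authors with Cy3 and Cy5 and hybridised to Agilent 4×44K rat arrays with a dye swap. Scanner files from Agilent Feature Extraction 11.0.1.1 were deposited, and per the file headers they hold processed signal intensity per channel, already background-corrected and dye-normalised, the log10 ratio of Cy5 over Cy3 and a p-value of that ratio from the software's error model. The deposited series value table holds the log10 of the processed red over green signal, with column medians from −0.0225 to 0.0167, and was used as an alternative. Flagged features (0 to 10 per array) were left out and copies of a probe were averaged. A probe entered the tests if its signal was well above background in either channel on 2 or more arrays, which kept 30619 of 41012 and all 15 described here.

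For LO over control, ratios were turned so that LO is the numerator, converted to log2, and averaged over each dye-swap pair, which leaves 4 units and 1 residual degree of freedom; the lone pairs of spleen and small intestine are assumed to vary like the liver pools. For tissues, channel log2 levels were quantile-normalised for mean intensity between arrays (Aquantile), averaged per RNA pool and fitted with tissue and treatment, the array pair being a random block (correlation 0.8756). Both fits used limma 3.58.1 in R 4.3.3 with Benjamini-Hochberg adjustment over all probes tested and a threshold of 0.05. Tables were made in Python. Both fits were first tested on simulated data, where the tissue fit gave unchanged probes a small p more often than its threshold allows and both called more of them than the adjusted threshold implies. A tissue fit on the mean of each array pair was therefore added after the data were seen.

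Replicate numbers in the labels mark the dye orientation. Deviations of arrays with the same number from their pair means correlated between 0.5544 and 0.805, so the number pairs the arrays, and averaging the pair cancels it.

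Genes were named through RefSeq accessions, which gave 10768 probes a symbol. The accessions of *Ube2c* and *Top2a* were not in that table and their names come from the list of genes. The genes, lists and tests were chosen with earlier results of these data known. Named from each list were the 3 probes with the largest called difference per direction and tissue comparison, and the 2 with the smallest p per LO comparison in spleen and small intestine. A gene that this rule named in the replication list is not reported here. From the mitosis, replication and G1 lists 48, 27 and 10 symbols had no named probe. The number of arrays and pools limits the precision.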

Additional observations from a re-analysis of the deposited data

Results flagged for a closer look

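The LO ratios of 3 probes had opposite directions in different tissues on every array. The share of all probes on the array that did the same was not counted. The liver ratios were also taken to have chosen the genes, so nothing is read from the number of these probes. *Ccnb1* A_44_P325479 was above 0 on all liver and spleen arrays and below 0 on both intestinal arrays, with mean log2 ratios apart by 1.16 between liver and small intestine and by 0.51 between spleen and small intestine. *Plk1* A_44_P463313 showed the same signs, apart by 0.51 and 0.41, and *Cdc20* likewise, apart by 0.44 and 0.28. The spleen to small intestine differences were tested and none passed (limma unadjusted p = 0.336, 0.0602 and 0.103, adjusted p = 1.0 each). The liver to small intestine differences were not tested. The other probe of *Ccnb1* and that of *Plk1* read on different sides of 0 on the 2 intestinal arrays. No liver array or liver pool stood apart from the other 3 in any of the 30 groups of 4 values checked. The values of a group share RNA pools or arrays, so they are not independent and nothing is read from this count.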

How the results depend on the processing

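For LO over control no member probe was called in small intestine under any alternative run, and in spleen only the normexp and loess setting called any, 2 of 15. That setting called 14 probes higher and 18 lower in small intestine, 95 and 16 in spleen, and 91 and 60 in liver, where the deposited ratios gave 0 throughout. With the 8 arrays as separate samples, 1 probe was lower in small intestine both without the replicate block and with the replicate block, and the block changed no other LO call. Bright probes alone gave 1 higher and 1 lower in liver. In liver the normexp setting also lowered the log2 ratios of *Ccnb1* A_44_P325479 and A_44_P534089 to 0.22 and 0.44, of *Plk1* A_44_P463309 and A_44_P463313 to 0.30 and 0.27, of *Ube2c* to 0.31, of *Birc5* from 0.42 to 0.26, of *Ccnd1* A_44_P411505 from 0.40 to 0.26, of *Aurkb* from 0.22 to 0.09 and of *Top2a* A_43_P12148 from 0.09 to 0.04. The cause of these shifts was not tested.

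In small intestine 5 of 15 probes kept the sign of their LO ratio in all alternatives. With 1 array of the pair left out, log2 values of the others ran from −0.125 to 0.083 for *Ccnb1* A_44_P534089, −0.037 to 0.123 for *Cdk1*, −0.331 to 0.116 for *Plk1* A_44_P463309, −0.095 to 0.106 for *Ube2c*, −0.232 to 0.114 and −0.251 to 0.101 for *Top2a*, −0.24 to 0.279 for *Aurkb*, −0.102 to 0.098 for *Birc5*, and −0.077 to 0.071 and −0.062 to 0.062 for *Ccnd1*. In spleen they ran from −0.001 to 0.406 for *Aurkb* and −0.03 to 0.044 for *Ccnd1* A_44_P411505, and the other 13 spleen probes kept their sign in all alternatives. With normexp, *Aurkb* was −0.054 and *Ccnd1* A_44_P411505 −0.023 in small intestine. By the ratio cut-offs, 2 probes were up in each liver pool without the P threshold, against 1 with it: both *Ccnb1* probes in pool 1, and *Ccnb1* A_44_P534089 and *Ube2c* in pool 2. By the geometric mean of the pair the 2 were both *Ccnb1* probes in each pool.

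All 15 probes kept their sign in spleen over liver under every alternative, with 7 to 14 called. In small intestine over liver 6 to 14 were called (14 with no array pair block, with 16 channels and a replicate block, and with normexp), and *Cdc20* turned to 0.098 with control pools only and 0.104 with liver pool 1 alone. Control pools only gave 4837 higher and 3763 lower probes in spleen over liver, 2849 and 2489 in small intestine over liver, and 1446 and 1018 in small intestine over spleen, with fewer pools in the fit. No array pair block gave 10224 and 9608 in small intestine over liver and 6900 and 9131 in small intestine over spleen. Array pair means as 4 units gave 5190 and 3970 in spleen over liver, 3099 and 2751 in small intestine over liver, and 1623 and 1199 in small intestine over spleen. The 16 channels with a replicate block gave 9173 lower in small intestine over liver, and 6547 higher and 8603 lower in small intestine over spleen. In small intestine over spleen, 1 member was called higher with 16 channels and with normexp, and 1 lower with 16 channels and with no array pair block. In that comparison values turned with control pools only for *Cdk1* (0.057), *Plk1* (0.195 and 0.093) and *Top2a* A_43_P12148 (0.043), with 75th percentile scaling for *Cdk1* (0.353), *Plk1* (0.103 and 0.101) and *Ube2c* (0.02), and with normexp for *Plk1* A_44_P463309 (0.017). That scaling moved the median of all probes to −0.19 in spleen over liver and −0.20 in small intestine over liver. For LO over control, fits with 1 liver pool leave no repeated pair and gave values with no test. For tissues such fits could be tested, but they hold 1 array pair per tissue. Their p-values therefore leave out the spread between pairs, and counts from them are not given.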
